A study of Homo sapiens with 60 samples.

Results

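The comparison set A549 cells treated with the hot water extract of Schisandrae Fructus (Schisandrae 500) against A549 cells treated with that of Liriopis seu Ophiopogonis Tuber (Liriopis 500). Both extracts were used at 500 µg/mL for 24 h. The members are the libraries that carry these labels, 3 of Schisandrae 500 and 3 of Liriopis 500, which are 6 of the 60 libraries of the series. A549 is an established human lung adenocarcinoma line. In the series, RNA was sequenced from cells given 1 of 6 herbal extracts, each at 20, 100 and 500 µg/mL, a positive control compound, or dimethyl sulfoxide alone (Vehicle). Both extracts belong to library set 2, the first part of the library names, so the comparison needs no vehicle library and crosses no set. The same extracts at 100 and 20 µg/mL, 3 libraries each, gave matched comparisons at lower dose.

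Several facts limit these groups as a model. The line is 1 cancer line, and no label states whether the 3 libraries of a group are separate cultures. The p-values therefore cover only the spread between libraries of a group, pooled over the 20 groups, which may be technical. No label gives the dimethyl sulfoxide level of the extract groups. For Vehicle the sample labels give 0.1% and the design text 2%. According to the design text, toxic extracts were given at lower doses, whereas every label states 500, 100 or 20 µg/mL. The labels' doses are used here. RNA was measured in bulk, so fewer cells of a type and less RNA per cell cannot be told apart.

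Library totals were 23.9 to 26.4 M counts in Schisandrae 500 and 21.5 to 24.9 M in Liriopis 500, within the 17.7 to 30.6 M of all 60 libraries. The line's own markers fitted the label in part. The aldo-keto reductase genes and ALDH1A1, which A549 expresses strongly, summed to 12500 to 13100 CPM (counts scaled to a common depth) with Schisandrae and 11700 to 13000 CPM with Liriopis. Of 15 lung epithelial markers, 4 stayed under 1 CPM in all 6 libraries: NKX2-1, SFTPB, SFTPC and SFTPD. Of 14 markers of fibroblasts, endothelium and blood, 11 stayed under 1 CPM and VWF was at 0. Their summed level was 48 to 48.3 CPM with Schisandrae and 43 to 52.3 CPM with Liriopis.

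One library stood apart in its mitochondrial share and in its counts. Liriopis 500 replicate 3 held 10.4% mitochondrial messenger RNA, the highest share of the 60 libraries, against 8.16 to 9.06% in the Schisandrae 500 libraries and 7.75 and 7.98% in the other Liriopis 500 libraries. Its counts differed from those of its replicates by a chi-square per degree of freedom of 15.2 and 11.1, whereas the other pairs of replicates lay between 2.53 and 4.23. By the root mean square deviation of log2 levels from the group mean, it was like Liriopis 500 replicate 1 (0.298 and 0.296). The comparison is given with and without replicate 3, and its part in each result beyond those values was not tested. The gene lists were refitted only without replicate 3. They were not refitted without replicate 1, although only 10 calls remained without that library.

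Selenoproteins carry selenocysteine, an amino acid inserted at a UGA codon that would otherwise stop translation. The insertion needs a hairpin in the 3' untranslated region of the messenger RNA. Many selenoproteins are redox enzymes, among them glutathione peroxidases and thioredoxin reductases, and the messenger RNAs of some of them are known to fall when selenium is scarce. The aryl hydrocarbon receptor (AHR) is a ligand-activated transcription factor that induces cytochrome P450 genes, and NRF2 is the factor that induces antioxidant genes. In A549 cells NRF2 is known to be active already without treatment, because its inhibitor KEAP1 is mutated.

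The selenocysteine codon is shown with the 12 bases before it and the 15 after it for the 5 selenoprotein genes that fell with Schisandrae and for GPX4, which did not pass. They show the feature that defines the group. The codon stands in capitals, written as DNA on the coding strand, from the GENCODE 29 transcripts on GRCh38.
SELENOW: tattgtggcgctTGAggctacaagtccaag
GPX1: gtggcgtccctcTGAggcaccacggtccgg
SELENOH: cattgcactagcTGAcgcgtctatgggcgc
SELENOT: atttgtgtttccTGAggttataggcgggtg
DIO2: ggctcagccactTGAcctcctttcacgagc
GPX4: gtggcctcccagTGAggcaagaccgaagta
In SELENOW the codon lies at chr19:47780732-47780734 on the plus strand, in exon 2 of 6, and is codon 13 of the protein. GPX1 has it at chr3:49358132-49358134 on the minus strand, in exon 1 of 2 (codon 49). SELENOH carries it at chr11:57741816-57741818 in exon 2 of 4 (codon 44), and SELENOT at chr3:150622392-150622394 in exon 2 of 6 (codon 49), both on the plus strand. The DIO2 codon shown, at chr14:80203112-80203114 on the minus strand, is the first of 2 and lies in the last exon (codon 133). That of GPX4, at chr19:1105403-1105405 on the plus strand, is in exon 3 of 7 (codon 73).

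With Schisandrae 500, 56 of 17368 genes tested differed from Liriopis 500. They comprised 25 higher genes, led in p-value by the cytochrome P450 gene CYP1B1, and 31 lower genes, led by SELENOW, CSRP1 and IL11. The called genes were 0.322% of all genes tested, 0.144% higher and 0.178% lower. Differences were small: the median absolute log2 fold change of the called genes was 0.20. No more than 2 genes passed 1.5-fold, CCDC180 (1.21) and SMCR5 (-2.54), both under 2 CPM in both groups. SMCR5 is annotated as an antisense gene, and the strand setting of the counts is not given, so its value is uncertain. In 55 of the 56 genes the 3 Schisandrae libraries and the 3 Liriopis libraries did not overlap in CPM, which held for 14.3% of all genes tested. The exception was ATP6V1G1, a subunit of the proton pump of lysosomes, whose highest Schisandrae 500 value of 37.5 CPM lay above the lowest Liriopis 500 value of 37.0 CPM. All calls are from edgeR's quasi-likelihood test with Benjamini-Hochberg adjustment over all genes tested, at an adjusted p under 0.05, in a model of all 60 libraries. At an unadjusted p under 0.05 there were 1884 genes.

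**Figure D1:**
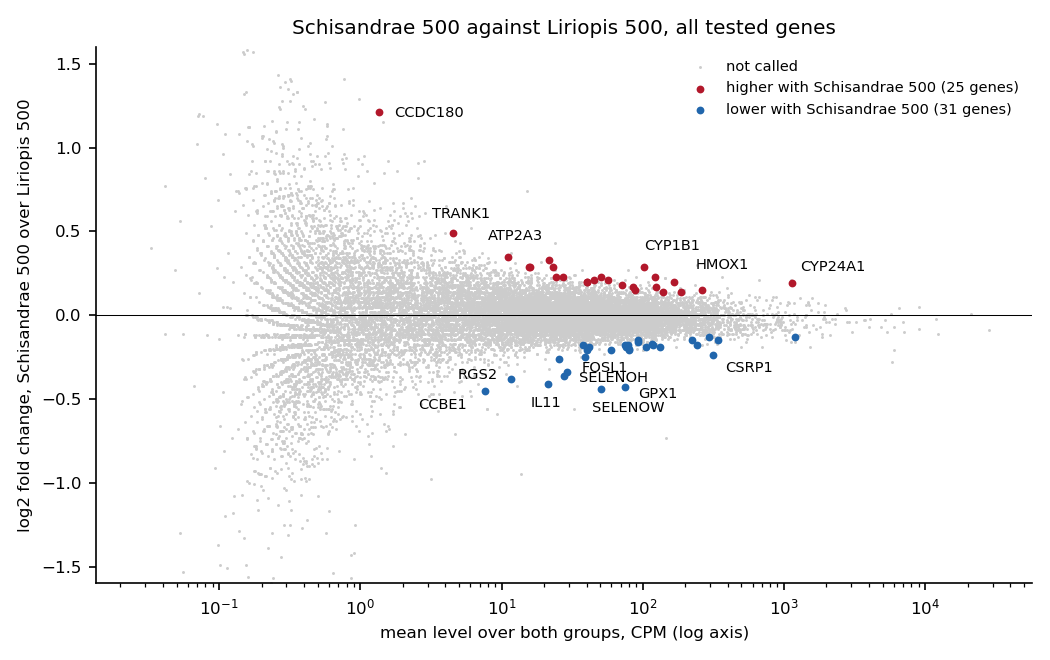
Log2 fold change of Schisandrae 500 over Liriopis 500 (y axis) against the mean level of both groups in CPM (x axis, log scale), with 1 point per gene tested. Red points mark the 25 genes that were higher and blue points the 31 that were lower, and 80 genes, 1 of them called, lie outside the plotted range. The called genes of moderate and high level lie within 0.5 log2 of 0.

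The number of calls depended on single libraries. Without Liriopis 500 replicate 3 there were 187 calls. All 56 genes kept their sign in that fit, and 46 of them still passed. Without Liriopis 500 replicate 1 there were 10 calls. Leaving out Schisandrae 500 replicate 1, 2 or 3 gave 20, 18 or 7 calls. In a model of the 6 compared libraries alone 9 genes passed, 5 of them among the 56, and in one of the 18 libraries of set 2 there were 7. All 56 genes kept their sign in each of 14 alternative settings. These settings reuse the libraries from which the genes were chosen. A kept sign was therefore nearly fixed in advance, also in the fit without Liriopis 500 replicate 3. SELENOW, GPX1, CSRP1, IL11 and CYP1B1 passed in all 14. These 5 genes are therefore described first and in most detail.

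SELENOW encodes a small selenoprotein of the cytosol. Its gene (ENSG00000178980, chr19:47778572-47784686) had 42.4, 44.0 and 42.3 CPM in the Schisandrae 500 libraries and 60.3, 58.2 and 55.5 CPM in the Liriopis 500 libraries. Every Schisandrae library lay below every Liriopis library. The log2 fold change was -0.44 ± 0.062 (SE, adjusted p = 6e-05). GPX1, the cytosolic glutathione peroxidase that reduces hydrogen peroxide (ENSG00000233276, chr3:49357171-49358600), had 67.4, 60.8 and 64.5 CPM with Schisandrae and 86.4, 88.3 and 84.1 CPM with Liriopis. Here too the groups were far apart, and GPX1 fell by 0.43 ± 0.072 on the log2 scale (adjusted p = 0.0015). GENCODE 29 lists GPX1 as a polymorphic pseudogene, and the gene has pseudogene copies between which reads can be divided, so its values are uncertain.

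The other selenoprotein genes that fell did so by less, or with a wider spread. SELENOH, a nucleolar selenoprotein, had 25.4, 22.9 and 24.9 CPM with Schisandrae 500 and 32.5, 32.8 and 28.3 CPM with Liriopis 500. Its log2 fold change was -0.36 ± 0.084 (adjusted p = 0.039), and the call held in only 1 of the 6 fits that each left out a library, that without Liriopis replicate 3 (adjusted p = 0.012). The adjusted p was 0.085, 0.24 or 0.12 without Schisandrae replicate 1, 2 or 3, and 0.31 or 0.13 without Liriopis replicate 1 or 2. DIO2, the deiodinase that makes active thyroid hormone, had 74.8, 74.9 and 73.7 CPM with Schisandrae and 89.6, 88.0 and 80.9 CPM with Liriopis (log2 fold change -0.21 ± 0.040, adjusted p = 0.0039). Its adjusted p was 0.053 without Schisandrae replicate 3 and 0.11 without Liriopis replicate 1. SELENOT, of the endoplasmic reticulum membrane, had 77.6, 72.7 and 73.8 CPM with Schisandrae and 89.6, 84.4 and 83.6 CPM with Liriopis (log2 fold change -0.20 ± 0.040, adjusted p = 0.0069). The adjusted p was 0.081, 0.063 or 0.2 without Schisandrae replicate 2, Schisandrae replicate 3 or Liriopis replicate 1. In all 3 genes the groups did not overlap.

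As a list, 5 of 13 selenoprotein genes tested fell with Schisandrae and none passed as higher. The list was chosen with earlier results of these data known, so this count is a description and not a test. The median log2 fold change of the 13 was -0.15, against 0 over all genes tested, where 0.178% were called lower. Of the 13, 12 had a value below 0. Without Liriopis 500 replicate 3 there were again 5 lower genes, with a median of -0.17. The 8 that did not pass ranged from SELENOK (-0.20, adjusted p = 0.43) to TXNRD1 (0.02, adjusted p = 0.89). Among them GPX4, which reduces lipid peroxides in membranes, had a log2 fold change of -0.12 ± 0.055 (adjusted p = 0.39). GPX2 had -0.06 and the mitochondrial thioredoxin reductase TXNRD2 had -0.07. SELENOP was not tested. The list holds less than all human selenoprotein genes, so 11 more were looked up after these values were seen. Of those, 8 were tested and none passed, with a median of 0 and a range from -0.19 (GPX3) to 0.23 (SELENOO). The 8 genes looked up for selenocysteine synthesis, decoding and selenium uptake, also added after the values were seen, held no call either. They ranged from -0.32 (PSTK) to 0.14 (SEPSECS), and the decoding factor SECISBP2 had 0.07.

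The position of the codon varied among the 5 genes that fell. In SELENOW, GPX1, SELENOH and SELENOT it lies 243, 105, 267 and 470 bases before the last exon junction, and in DIO2 it lies in the last exon. Of the 8 genes that did not pass, 6 had the codon before the last junction, and 2 had it in the last exon, SELENOS and TXNRD1. The distance was 342 bases in GPX4, 135 in SELENOM, 102 in GPX2, 71 in TXNRD2, 34 in MSRB1 and 5 in SELENOK. A relation between the position and the fold change was not tested.

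The lower doses, measured in other libraries, put SELENOW and GPX1 in order of dose with Schisandrae. SELENOW had 52.1 ± 1.64, 48.4 ± 2.04 and 42.9 ± 0.928 CPM at 20, 100 and 500 µg/mL of Schisandrae (mean ± SD, n = 3 each), and 58.0 ± 2.41, 56.7 ± 1.82 and 58.0 ± 2.37 CPM at the same doses of Liriopis. Vehicle had 54.3 ± 2.86 CPM. For Schisandrae over Liriopis its log2 fold change was -0.15 at 20, -0.23 at 100 and -0.44 at 500 µg/mL. That at 100 had an adjusted p of 0.94 and that at 20 one of 0.57, so only the highest dose passed. GPX1 gave 0.06, -0.21 and -0.43 in the same order. It is among the 3 genes (0.0173% of those tested) whose slope per 5-fold step of dose differed between the extracts, and the 1 selenoprotein gene among them (-0.25 ± 0.040 log2 per step, adjusted p = 0.026), but that call was lost without Schisandrae 500 replicate 2 or 3 or Liriopis 500 replicate 1 or 2, when no gene passed. A contrast of group means in all 60 libraries did not call GPX1 either. SELENOW had a slope difference of -0.14 ± 0.032 (adjusted p = 0.32). SELENOH, DIO2 and SELENOT lay between -0.08 and -0.01 at 100 µg/mL and between 0.01 and 0.06 at 20 µg/mL, with no call.

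**Figure D2:**
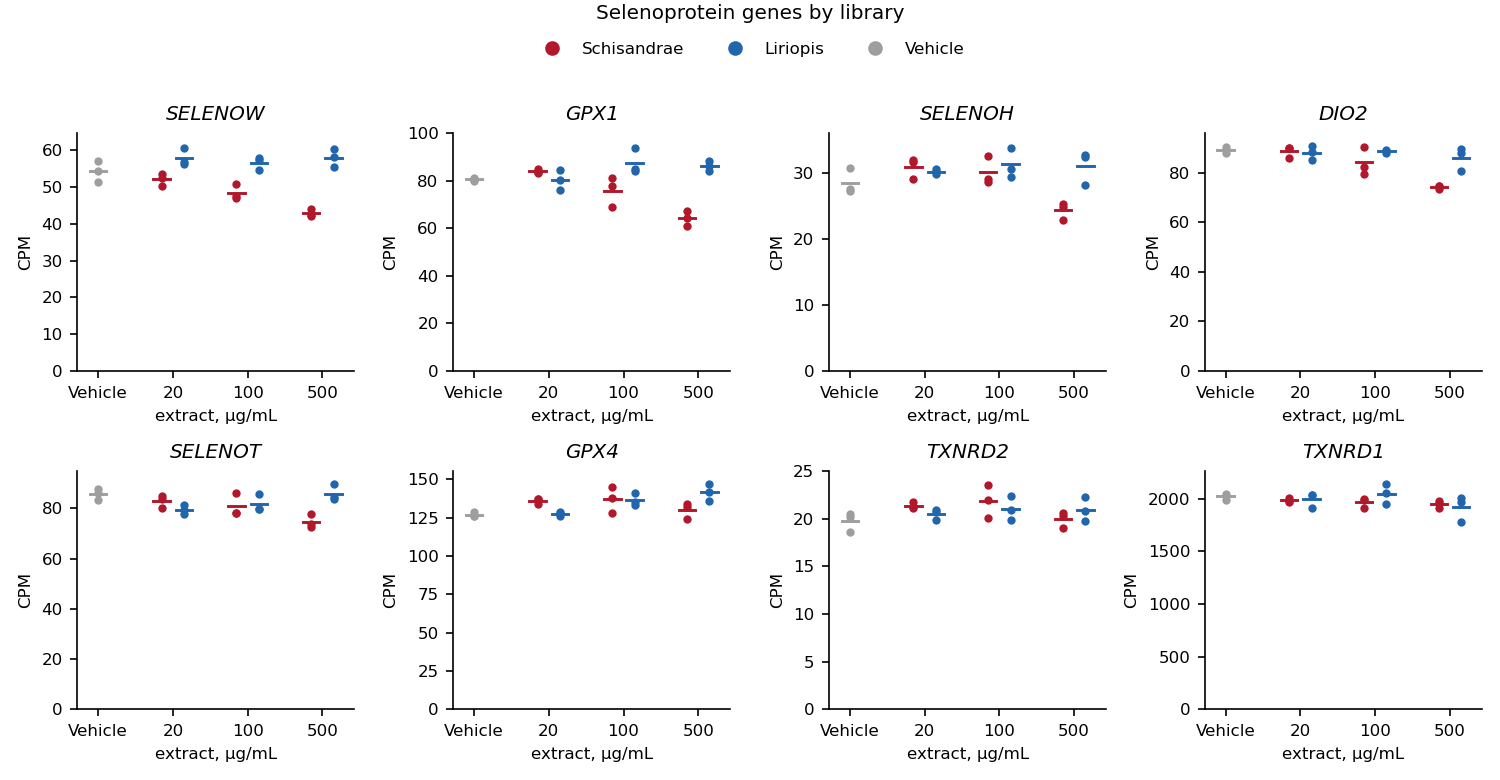
CPM (y axis, from 0) of 8 selenoprotein genes in each library of Vehicle and of both extracts at 20, 100 and 500 µg/mL (x axis). Points are single libraries and bars are means of 3, with Schisandrae in red, Liriopis in blue and Vehicle in grey. SELENOW, GPX1, SELENOH, DIO2 and SELENOT lie lower in Schisandrae 500 than in Liriopis 500 without overlap, and TXNRD1 overlaps.

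Among the other lower genes, CSRP1 and IL11 had the smallest p-values. CSRP1, a LIM-domain protein of the actin cytoskeleton (ENSG00000159176, chr1:201483530-201509456), had 299, 283 and 283 CPM with Schisandrae 500 and 344, 341 and 334 CPM with Liriopis 500. It fell by 0.24 ± 0.035 on the log2 scale (adjusted p = 6e-05), and no library broke the order. IL11, a secreted cytokine of the interleukin-6 family (ENSG00000095752, chr19:55364389-55370463), had 18.4, 18.2 and 17.8 CPM with Schisandrae and 23.4, 24.1 and 25.1 CPM with Liriopis. The log2 fold change of IL11 was -0.41 ± 0.062 (adjusted p = 6.9e-05). At the lower doses it was -0.01 at 100 and 0.09 at 20 µg/mL, so the difference was seen at 500 µg/mL alone. CSRP1 had -0.08 and -0.04 at those doses.

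RGS2, which switches off Gq-coupled receptor signals, had 10.7, 10.3 and 9.68 CPM with Schisandrae 500 and 13.8, 13.1 and 13 CPM with Liriopis 500 (log2 fold change -0.38 ± 0.072, adjusted p = 0.0039). Without Schisandrae replicate 3 its adjusted p was 0.063, and without Liriopis replicate 1 it was 0.085. FOSL1, an AP-1 transcription factor subunit, had 27.8, 24.7 and 24.3 CPM with Schisandrae and 34.5, 30.0 and 33.1 CPM with Liriopis (log2 fold change -0.34 ± 0.077, adjusted p = 0.024). It was the 1 of 20 MAPK early and feedback genes that passed as lower, beside 0.178% of all genes tested. The median of that list was 0, and FOS had -0.03, DUSP6 0.15 and SPRY2 0.24, none of which passed. The FOSL1 call was lost without Schisandrae replicate 2 (adjusted p = 0.15), Schisandrae replicate 3 (0.15) or Liriopis replicate 1 (0.31). CCBE1, a secreted protein needed for lymphatic vessel growth, had 6.46, 6.11 and 6.87 CPM with Schisandrae and 9.37, 8.84 and 8.29 CPM with Liriopis (log2 fold change -0.45 ± 0.099, adjusted p = 0.020). It had -0.32 at 100 µg/mL and -0.05 at 20 µg/mL. Without Schisandrae replicate 1, 2 or 3 or Liriopis replicate 1 its adjusted p was 0.085, 0.14, 0.053 or 0.24.

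In the list of ribosome biogenesis genes, 2 of 17 passed as lower, where 0.178% of all genes tested did. NOP56, a core protein of the small nucleolar particles that methylate ribosomal RNA, had 316, 328 and 321 CPM with Schisandrae 500 and 378, 348 and 344 CPM with Liriopis 500 (log2 fold change -0.15 ± 0.036, adjusted p = 0.045). UTP4, a factor of small ribosomal subunit assembly, had 88.2, 88.2 and 89.1 CPM with Schisandrae and 102, 95.3 and 96.2 CPM with Liriopis (log2 fold change -0.15 ± 0.034, adjusted p = 0.029). The list had a median of -0.07, against 0 over all genes tested. It had 16 members below 0, as did 8630 of the 17368 genes tested. Without Liriopis replicate 3, 4 members passed as lower, and the median was again -0.07. Without Liriopis replicate 1 the adjusted p was 0.56 for NOP56 and 0.39 for UTP4, and neither passed without any 1 of the Schisandrae replicates (adjusted p = 0.19, 0.09 and 0.15 for NOP56 and 0.11, 0.12 and 0.11 for UTP4). Outside the list, RRP36, which processes ribosomal RNA, had 36.3, 38.8 and 38.0 CPM with Schisandrae and 42.3, 44.4 and 43.7 CPM with Liriopis (-0.21 ± 0.045, adjusted p = 0.020). It passed only without Schisandrae replicate 2 or Liriopis replicate 3 among the fits that left out a library, and the others gave an adjusted p of 0.15, 0.073, 0.054 and 0.071. MRPS22, a mitochondrial ribosomal protein, had 22.1, 24.1 and 23.9 CPM with Schisandrae and 30.2, 27.2 and 26.5 CPM with Liriopis (-0.26 ± 0.055, adjusted p = 0.014), with an adjusted p of 0.13, 0.053 and 0.31 without Schisandrae replicate 1, Schisandrae replicate 3 and Liriopis replicate 1. EIF4E, the cap-binding translation factor, had -0.21 ± 0.048 (adjusted p = 0.027), but -0.12 with an adjusted p of 0.61 without Liriopis replicate 1. It did not pass without any 1 of the Schisandrae replicates either (adjusted p = 0.085, 0.16 and 0.078).

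No cytosolic ribosomal protein gene and no nuclear gene of oxidative phosphorylation passed. Of 24 ribosomal protein genes, 23 had a value below 0, with a median of -0.06, and of 24 oxidative phosphorylation genes 22 did, with a median of -0.08, beside 8630 of all 17368 genes tested and a median of 0. The lowest member of each list reached -0.16. At 100 µg/mL these medians were 0.04 and 0.02, and at 20 µg/mL they were 0.07 and 0.05, on the other side of 0. Without Liriopis replicate 3 they were -0.11 and -0.13 at 500 µg/mL. The mitochondrially encoded messenger RNAs had a median of -0.10, which was 0.09 without that library.

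Other lower genes were singled out after their values were seen. They include BZW2 (-0.19), the pre-ribosomal RNA factors DDX47 (-0.18) and IMP4 (-0.16), the translation factor EIF4A1 (-0.13), ODC1 of polyamine synthesis (-0.18), the DNA repair genes TDG (-0.18) and RAD18 (-0.19), and the surface protein gene CD24 (-0.15). Of the 6 fits that each left out a library, BZW2 passed in 5, DDX47, IMP4, TDG and CD24 in 3 each, ODC1 and RAD18 in 2 each and EIF4A1 in 1. None of these genes passed in the 6 compared libraries alone or in the 18 libraries of set 2. SLC26A2, a sulfate transporter, had 119, 125 and 130 CPM with Schisandrae 500 and 146, 146 and 135 CPM with Liriopis 500 (-0.19 ± 0.046, adjusted p = 0.039). It was the 1 of 11 pH, lactate and bicarbonate transport genes that passed as lower (0.178% of all genes tested), and it passed in only 1 of the 6 fits that left out a library, that without Liriopis replicate 3 (adjusted p = 0.012). In the other 5 its adjusted p was 0.13 to 0.31. EIF4A1, EIF4E and CD24 have gene copies elsewhere in the genome, so their levels are uncertain.

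On the higher side CYP1B1 had the smallest p-value. This cytochrome P450, an AHR target that oxidises oestrogens and aromatic hydrocarbons (ENSG00000138061, chr2:38066973-38109902), had 117, 113 and 111 CPM with Schisandrae 500 and 93.5, 96.0 and 89.0 CPM with Liriopis 500. The groups were well apart, and the log2 fold change was 0.29 ± 0.046 (adjusted p = 0.00021). At 100 and 20 µg/mL it was 0.09 and 0.01. CYP1B1 was the 1 of 7 AHR target genes that passed as higher, beside 0.144% of all genes tested. The list had a median of 0.11, and 0.05 without Liriopis replicate 3. CYP1A1, the classical AHR target, had 1.51, 1.21 and 1.42 CPM with Schisandrae and 1.6, 1.38 and 0.819 CPM with Liriopis. Its groups overlapped (log2 fold change 0.11 ± 0.21, adjusted p = 0.92). AHRR, the receptor's repressor, had 0.30 (adjusted p = 0.29) and TIPARP 0.12 (adjusted p = 0.32).

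HMOX1, which breaks down heme, had 187, 173 and 177 CPM with Schisandrae 500 and 155, 154 and 158 CPM with Liriopis 500 (log2 fold change 0.20 ± 0.043, adjusted p = 0.020). The log2 fold changes at the lower doses were 0.11 at 100 and 0.08 at 20 µg/mL, with no call. The HMOX1 call was lost without Schisandrae replicate 1 (adjusted p = 0.18), Schisandrae replicate 3 (0.068), Liriopis replicate 1 (0.15) or Liriopis replicate 2 (0.06). HMOX1 stood in 2 lists, as the 1 of 25 NRF2 targets and the 1 of 13 iron and heme genes that passed, beside 0.144% of all genes tested that passed as higher. The NRF2 list had a median of 0.03, and its members GCLM (0.09, adjusted p = 0.39), NQO1 (0.03, adjusted p = 0.84) and SLC7A11 (0.03, adjusted p = 0.86) did not pass. SQSTM1, an autophagy receptor, had 0.06 (adjusted p = 0.47). Without Liriopis replicate 3, 2 NRF2 targets passed as higher, while the median of the list was -0.02 and 13 members lay below 0, against 6 with all libraries.

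In the list of mesenchymal and matrix genes, 0 of 18 measured members passed in either direction, with a median of 0. The higher genes described next lie outside that list. LRP5, a Wnt co-receptor, had 127, 132 and 136 CPM with Schisandrae 500 and 100, 118 and 117 CPM with Liriopis 500 (log2 fold change 0.23 ± 0.051, adjusted p = 0.020). Liriopis replicate 1 lay below its replicates, and without it the value was 0.16 (adjusted p = 0.39). Without Schisandrae replicate 2 or 3 the adjusted p was 0.089 or 0.13. LTBP4, which binds latent TGF-beta, had 59.6, 59.3 and 62.1 CPM with Schisandrae and 45, 55.7 and 56 CPM with Liriopis (0.21 ± 0.047, adjusted p = 0.026). Again Liriopis replicate 1 was low, and without it LTBP4 had 0.11 (adjusted p = 0.6). Its adjusted p was 0.073, 0.081 or 0.15 without Schisandrae replicate 1, 2 or 3. The secreted proteases HTRA3 (0.29 ± 0.070, adjusted p = 0.038) and ADAMTS10 (0.33 ± 0.079, adjusted p = 0.041) and the adhesion receptor CELSR3 (0.29 ± 0.071, adjusted p = 0.041) followed that pattern, with 0.21, 0.20 and 0.22 and no call without Liriopis replicate 1. Of the 6 fits that each left out a library, HTRA3 passed in 3, ADAMTS10 in 1 and CELSR3 in 1. CAVIN2, a coat protein of caveolae, had 16.5, 16.5 and 18.2 CPM with Schisandrae and 14.8, 13.1 and 13.9 CPM with Liriopis (0.29 ± 0.060, adjusted p = 0.014). It had 0.22 at 100 µg/mL and 0.00 at 20 µg/mL, and at 500 µg/mL an adjusted p of 0.14 without Schisandrae replicate 3 and 0.085 without Liriopis replicate 2. GPR161, a receptor of the primary cilium, had 26.4, 26.8 and 25.7 CPM with Schisandrae and 22.2, 22.8 and 22.2 CPM with Liriopis (0.23 ± 0.048, adjusted p = 0.013), and an adjusted p of 0.053, 0.081 or 0.11 without Schisandrae replicate 1, Schisandrae replicate 2 or Liriopis replicate 1.

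The remaining higher genes have varied roles. ATP2A3, a calcium pump of the endoplasmic reticulum, had 12.6, 12.8 and 11.9 CPM with Schisandrae 500 and 8.55, 9.77 and 11.1 CPM with Liriopis 500. The Liriopis libraries were spread widely, and the log2 fold change of 0.35 ± 0.077 (adjusted p = 0.020) was 0.26 without Liriopis replicate 1, with an adjusted p of 0.39. TRANK1 had 5.14, 5.35 and 5.41 CPM with Schisandrae and 3.70, 3.73 and 3.85 CPM with Liriopis, which gave 0.49 ± 0.12 (adjusted p = 0.035). Both groups were tight, but the call passed only without Liriopis replicate 3 among the fits that left out a library. H6PD, the hexose phosphate dehydrogenase of the endoplasmic reticulum, had 0.23 ± 0.054 (adjusted p = 0.030), and 0.18 with an adjusted p of 0.39 without Liriopis replicate 1. ATP2A3 and H6PD each passed in 2 of the 6 fits that left out a library, those without Liriopis replicate 2 or 3. RNF217, a ubiquitin ligase gene, had 0.23 ± 0.054 (adjusted p = 0.035), and 0.20 with an adjusted p of 0.085 without Liriopis replicate 3. It passed in 1 of the 6 fits that left out a library, that without Liriopis replicate 2 (adjusted p = 0.012), and the adjusted p was 0.17, 0.09 or 0.12 without Schisandrae replicate 1, 2 or 3 and 0.37 without Liriopis replicate 1. SLC38A2, a neutral amino acid transporter, had 273, 275 and 289 CPM with Schisandrae and 261, 262 and 231 CPM with Liriopis (0.15 ± 0.035, adjusted p = 0.031). It was the 1 of 14 amino acid transporter genes that passed as higher (0.144% of all genes tested), and without Liriopis replicate 3 it had 0.09 (adjusted p = 0.16). It passed in 2 of the 6 fits, those without Liriopis replicate 1 or 2, and had an adjusted p of 0.053, 0.081 or 0.23 without Schisandrae replicate 1, 2 or 3. Singled out after its values were seen, CYP24A1, which inactivates vitamin D hormone, had 1190, 1230 and 1240 CPM with Schisandrae and 984, 1090 and 1130 CPM with Liriopis (0.19 ± 0.036, adjusted p = 0.0039). CYP24A1 passed in 4 of the 6 fits that left out a library. It did not pass in the 18 libraries of set 2 (adjusted p = 0.11) or in the 6 compared libraries (0.42). Its lowest log2 fold change over the 14 settings was 0.13.

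**Figure D3:**
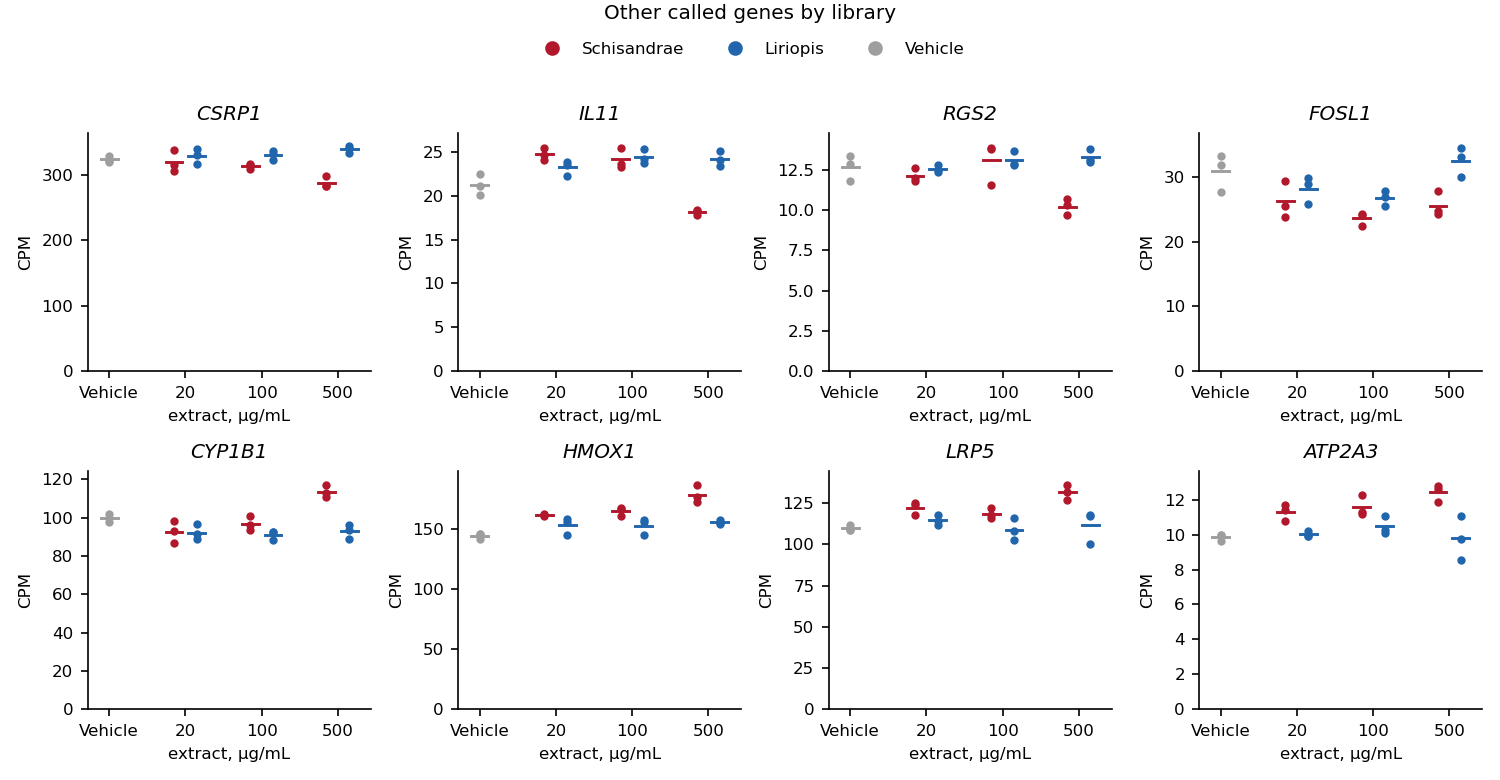
CPM (y axis, from 0) of 8 called genes in each library of Vehicle and of both extracts at 20, 100 and 500 µg/mL (x axis). Points are single libraries and bars are means of 3, with Schisandrae in red, Liriopis in blue and Vehicle in grey. CSRP1, IL11, RGS2 and FOSL1 lie lower and CYP1B1, HMOX1, LRP5 and ATP2A3 higher in Schisandrae 500 than in Liriopis 500, without overlap.

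Beyond these genes the lists held no call. In the 38 lists, the members that passed were the selenoprotein, ribosome biogenesis, AHR, NRF2, iron and heme, MAPK, amino acid transporter and pH transport genes named above. No member passed among ATF4 targets, endoplasmic reticulum chaperones, heat shock genes, cholesterol or fatty acid synthesis, LXR, PPAR, FOXO or p53 targets, hypoxia, glycolysis, lysosome, interferon or cell cycle genes. All 5 measured drug metabolism genes of the PXR list had values above 0 (median 0.24), and 12 of 13 complement, fibrinogen and acute phase genes did (median 0.12), with no call, beside 8722 of all 17368 genes tested (median 0). NF-kB and cytokine genes had a median of -0.16, in which CXCL8 had -0.47 ± 0.23 (adjusted p = 0.46) at levels near 1 CPM. Without Liriopis 500 replicate 3, calls appeared in lists that had none: 2 lower ATF4 targets, 3 lower DNA replication genes, 1 lower glycolysis gene and 1 higher PPAR target.

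**Figure D4:**
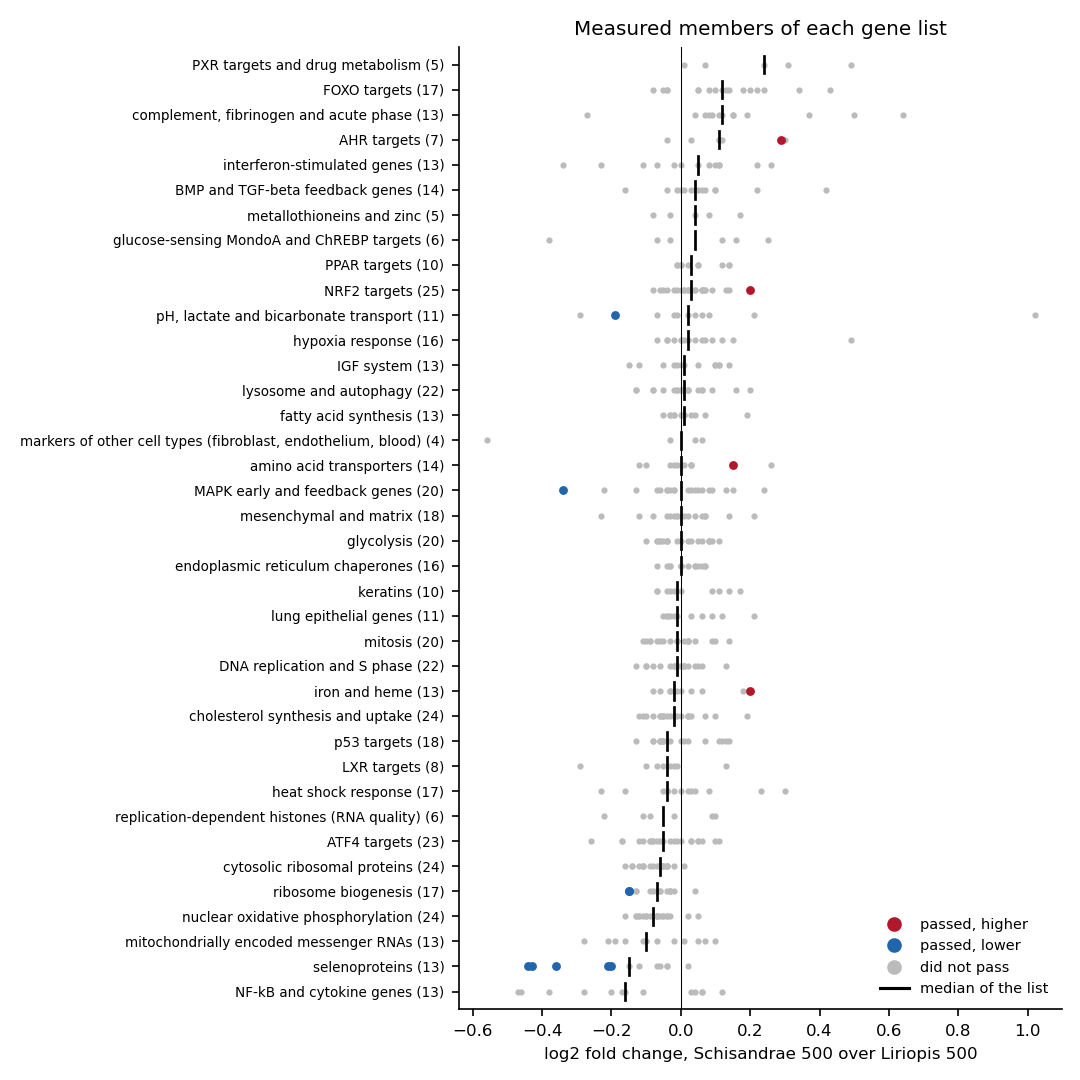
Log2 fold change of Schisandrae 500 over Liriopis 500 (x axis) for every measured member of the 38 lists (y axis, number measured in parentheses). Red and blue points passed as higher and lower, grey points did not pass, and black lines are list medians. The selenoprotein list has 5 blue points and a median of -0.15.

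Panel genes of other pathways did not pass. The cholesterol synthesis genes SQLE (-0.04 ± 0.034) and HMGCS1 (-0.05 ± 0.038), the p53 target CDKN1A (-0.06 ± 0.044), the amino acid response genes TRIB3 (-0.09 ± 0.048) and ASNS (-0.01 ± 0.049), and the proliferation marker MKI67 (0.09 ± 0.087) all had values near 0. A value that misses the threshold does not show that the extracts act alike.

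At the lower doses few genes differed. Schisandrae 100 over Liriopis 100 gave 0 calls with edgeR, 0 with DESeq2, and 895 genes (5.15%) at an unadjusted p under 0.05. Of the 56 genes called at 500 µg/mL, 43 had the same sign at 100 µg/mL, 18 of 25 higher genes and 25 of 31 lower ones, and 11 of them also had an unadjusted p under 0.05. Their median log2 fold changes there were 0.03 for the higher and -0.03 for the lower genes, against 0.21 and -0.19 at 500 µg/mL. The genes were chosen by their values at 500 µg/mL, so smaller values at other doses do not by themselves show an effect of dose. The share with the same sign over all genes tested is not given here, for this dose or for 20 µg/mL. Schisandrae 20 over Liriopis 20 gave 2 calls, 0.0115% of genes tested, both lower, with 1219 genes (7.02%) at an unadjusted p under 0.05. There 34 of the 56 genes had the same sign, 20 of 25 higher and 14 of 31 lower, and 5 of them had an unadjusted p under 0.05. The genes called at 20 µg/mL were PPIAP22, a processed pseudogene with 18.5, 16.3 and 17.3 CPM in Schisandrae 20 and 24.2, 21.7 and 25 CPM in Liriopis 20 (-0.45 ± 0.078, adjusted p = 0.0066), and LYZ, which encodes lysozyme. LYZ had no count in the 3 Schisandrae 20 libraries and 63 counts in the 3 Liriopis 20 libraries, at least 24.7-fold lower against a floor of 3 counts over the group. At 500 µg/mL LYZ was at 0.0382 CPM with Schisandrae and 0.0272 CPM with Liriopis. Without Schisandrae 20 replicate 2 or 3 no gene passed at 20 µg/mL, and without Liriopis 20 replicate 3 there were 36 calls.

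**Figure D5:**
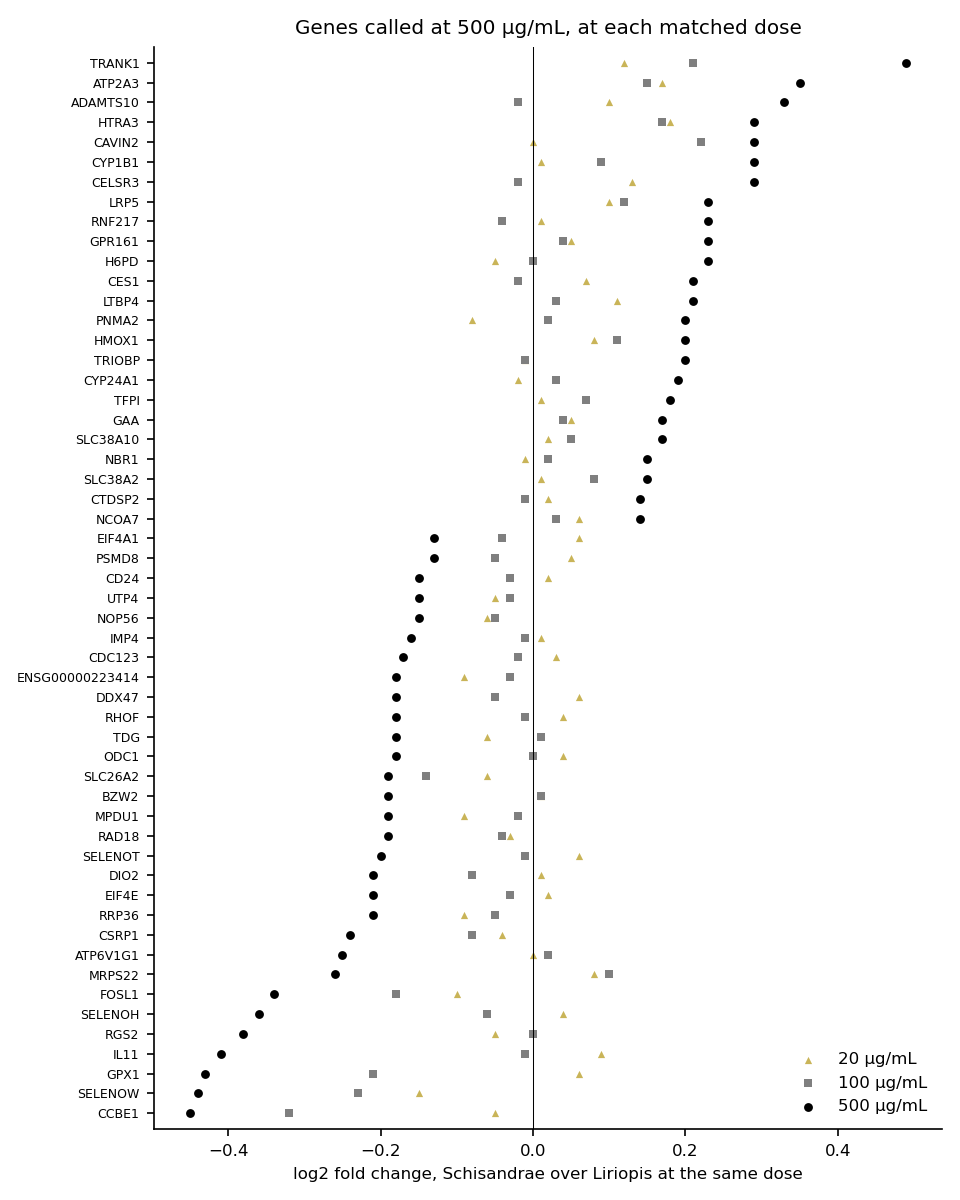
Log2 fold change of Schisandrae over Liriopis at the same dose (x axis) for 54 of the 56 genes called at 500 µg/mL (y axis), with 2 genes beyond 1 log2 left out. Triangles, squares and circles stand for 20, 100 and 500 µg/mL. Values at 20 and 100 µg/mL lie nearer to 0 than those at 500 µg/mL, by which the genes were chosen. The values keep the order of dose in SELENOW, and in other genes such as GPX1, CSRP1, CCBE1, CYP1B1 and HMOX1.

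Values against Vehicle were read beside the comparison, as they show on which side a gene stood away from cells given the vehicle. These comparisons share libraries with it and with each other, and Vehicle belongs to another library set, so a set difference and an extract difference cannot be told apart in them. Schisandrae 500 differed from Vehicle in 83 genes (0.478% of those tested). Liriopis 500 differed from Vehicle in 1 gene (0.00576%), FGA of fibrinogen, which had -0.16 (adjusted p = 0.043). SELENOW had -0.34 in Schisandrae 500 over Vehicle (adjusted p = 0.0019) and 0.10 in Liriopis 500 over Vehicle (adjusted p = 0.69). GPX1 had -0.33 (adjusted p = 0.019) and 0.10 (adjusted p = 0.72) in the same order. CSRP1 had -0.17 and 0.07, DIO2 -0.26 and -0.05, and SELENOT -0.20 and 0.00. HMOX1 had 0.30 over Vehicle with Schisandrae (adjusted p = 5.2e-05) and 0.11 with Liriopis (adjusted p = 0.56). For CYP1B1 the values were 0.18 (adjusted p = 0.04) and -0.11 (adjusted p = 0.57), and for IL11 -0.23 (adjusted p = 0.077) and 0.18 (adjusted p = 0.43). In both genes the values of the extracts had opposite signs, but only that of CYP1B1 with Schisandrae passed.

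Among the 20 groups of the series, ordered from high to low mean CPM, several of these genes stood near the ends. SELENOW ranked 19 in Schisandrae 500 and 2 in Liriopis 500. GPX1 had the same ranks. RGS2 ranked 20 with Schisandrae and 3 with Liriopis, and CSRP1 17 and 1. CYP1B1 ranked 4 with Schisandrae and 16 with Liriopis, and TRANK1 4 and 20. These ranks are a description, since the groups come from several library sets. The lowest SELENOW mean of any other group was 40.4 CPM, in cells given Aucklandiae Radix at 500 µg/mL. Schisandrae 500 had 42.9 CPM. With Aucklandiae the other called selenoprotein genes had means of 54 (GPX1), 24.2 (SELENOH), 73.7 (SELENOT) and 72.9 CPM (DIO2). In Schisandrae 500 these were 64.2, 24.4, 74.7 and 74.5 CPM. With Zizyphi Semen at 500 µg/mL they were 65.2, 25.3, 74.4 and 77.8 CPM, and SELENOW had 43.7 CPM. Low means of these genes were thus not limited to Schisandrae. CYP1B1 had 92.8 CPM with Aucklandiae and 101 CPM with Zizyphi, beside 113 CPM in Schisandrae 500. Its mean was higher than in Schisandrae 500 with Polygalae Radix at 500 µg/mL (147 CPM) and 100 µg/mL (114 CPM). It was also higher with the positive control compound (133 CPM). These differences were not tested.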

How the data were processed

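The authors deposited 1 table of expected counts per gene (RSEM estimates, not scaled for depth) for all 60 libraries. Per the submitters' processing notes, the build was GRCh38 and the tools were RSEM 1.3.3, STAR 2.7.3a, FastQC 0.11.9 and Trim Galore 0.6.5. Neither annotation release nor strand setting is given in the sources used here. Per the labels' protocols, a directional kit and paired-end reads of 100 bases were used, from RNA with an integrity number above 7.

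RSEM divides reads between similar genes, so pseudogenes and copies are uncertain. The 10.7% of values that were not whole were rounded. Symbols were found for 41209 of 60675 genes in the reference gene table and for 497 in GENCODE 29, which gave the positions. The selenocysteine codons are GENCODE 29 features on GRCh38.

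edgeR 4.0.16 in R 4.3.3 (limma 3.58.1) was used with filterByExpr over the 20 groups, TMM scaling and a robust quasi-likelihood fit of 1 mean per group (40 residual degrees of freedom). Tests were two-sided. Dose slopes were fitted to the 18 libraries of set 2. Levels are TMM-scaled CPM. The fits were tested on simulated data. Alternatives were other scalings, no filter, fewer libraries, a replicate block, DESeq2 1.42.0 and leaving out each library. Replicates were not copies of each other: chi-square per degree of freedom was at least 2.53.

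Named genes are the 12 largest rises and 12 largest falls among called genes with non-overlapping groups and a mean of at least 2 CPM in either group, up to 4 called members of each list, and a panel of 25 genes, of which TXNIP and ABCB1 were not tested and 1 is not reported here. The comparison, its members and the lists were chosen with earlier results of these data known; the labels decided only which library belongs to which group. No set test was run.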

Additional observations from a re-analysis of the deposited data

Results flagged for a closer look

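The dose slope (log2 change for each 5-fold rise in dose) differed between the extracts in 3 genes (adjusted p under 0.05, edgeR's quasi-likelihood test of the interaction in the 18 libraries of set 2, 0.0173% of genes tested). For GPX1 the difference, Schisandrae minus Liriopis, was -0.25 ± 0.04 log2 per step (adjusted p = 0.026), from a slope of -0.19 with Schisandrae and 0.05 with Liriopis. RPS27P4, a processed pseudogene, had 1.72 ± 0.29 (adjusted p = 0.05, below the threshold before rounding), from slopes of 0.25 and -1.47. With Liriopis it had 3.08, 3.99 and 2.84 CPM at 20 µg/mL and at most 0.985 CPM at 100 and 500 µg/mL, whereas no Schisandrae library was above 1.21 CPM. The gene ENSG00000259607, annotated as antisense and without a symbol, had -3.81 ± 0.68 (adjusted p = 0.05, below the threshold before rounding), from slopes of -0.18 and 3.63. It had 0 CPM in all 3 Liriopis 20 libraries and 0.411, 0.243 and 0.337 CPM in Liriopis 500, so the fitted slope depends on the model's handling of 0. Levels of ENSG00000259607, at most 0.468 CPM in the 18 libraries, were near the lower limit of what these depths measure. For RPS27P4, a pseudogene, reads can be divided between similar genes, so its values are uncertain.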

How the results depend on the processing

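The 56 calls at 500 µg/mL were 7 in the 18 libraries of set 2, 9 in the 6 compared libraries, 216 with no filter on low counts and 148 with DESeq2, and 7 to 187 when 1 library was left out. They were 56 with RLE scaling and 57 with upper-quartile scaling. Not all of these were the same genes. Of the main 56, 5 were among the 9 calls in 6 libraries, 45 among the 216 with no filter and 48 among the 148 with DESeq2. At 100 µg/mL the 0 calls were 1 in the 6 libraries and 106 with no filter, and 0 in each fit that left out a library. At 20 µg/mL the 2 calls were 14 in 18 libraries, 29 in 6 libraries, 263 with no filter, 9 with DESeq2, and 0 to 36 when 1 library was left out. The 3 slope differences were 6 with DESeq2 and 209 with no filter, with the 3 genes among them each time. As a contrast of group means in 60 libraries there was 1 call, in none of the 3 genes. When 1 library was left out there were 0 to 3 calls. The cause was not tested. No filter raised the genes tested, and most added genes have few counts, so depth limits them.

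With the replicate number as a block, there were 59 calls in 60 libraries and 23 in 18 libraries at 500 µg/mL, 3 and 17 at 20 µg/mL, 0 at 100 µg/mL, and 1 slope difference. Deviations of same-numbered libraries of Schisandrae and Liriopis at the same dose had correlations between -0.05 and 0.04. The numbers thus show no pairing between the extracts at a dose, and not every library correlated best with its own number. Correlations between libraries of the same extract at different doses were not computed, so shared deviations across doses were not tested. In LRP5, Liriopis replicate 1 was the lowest of its group at 500 and 100 µg/mL (100 and 103 CPM) and the highest at 20 µg/mL (118 CPM).

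Among the named genes reported, signs changed only in genes that did not pass, all near 0. In fits that left out 1 library, ASNS (-0.01) had -0.07 to 0.03, IGF2 (-0.01) -0.1 to 0.16, NEU1 (0.00) -0.02 to 0.05, CYP1A1 (0.11) -0.11 to 0.31 and NQO1 (0.03) -0.03 to 0.08. CYP1A1 and NQO1 were below 0 only without Liriopis 500 replicate 3.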
